A study of Mus musculus with 2 samples.

Results

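The genes described here are 7 members of the MHC class II pathway, chosen by name: H2-Aa, H2-Ab1, H2-Eb1, H2-DMa, H2-DMb1, Cd74 and Ciita. They were found by symbol among the 32285 genes counted in single-cell RNA sequencing of brain immune cells, and all 7 were present in the table. CD45low CD11b+ cells, a gate meant for microglia among the myeloid cells, were sorted from the brains of male littermates of 23 weeks. The Disc1 WT/WT group was a pool of 6 wild-type mice, and the Disc1 LI/LI group a pool of 6 mice homozygous for the Disc1 locus impairment allele, which is carried in all tissues and not in microglia alone. They are called WT/WT and LI/LI below. Actinomycin D, an inhibitor of transcription, was present while both pools were dissociated. Each pool gave 1 library, so there is no replicate check, no test was made, and every interval below is a 95% exact interval for counting error only.

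Class II molecules present peptides to CD4+ T cells. An alpha and a beta chain form a heterodimer (H2-Aa with H2-Ab1 in the A molecule, and H2-Eb1 as the beta chain of the E molecule), and the invariant chain Cd74 holds the newly made dimer until it reaches the endosome. There the H2-DM heterodimer, made of H2-DMa and H2-DMb1, exchanges the remnant of the invariant chain for a peptide. Ciita is the coactivator of the class II promoters and does not bind DNA itself, but is recruited by RFX and NF-Y proteins at the X and Y boxes of these promoters. Dendritic cells, B cells and activated macrophages are rich in class II, whereas microglia of the healthy brain hold little and neutrophils and most mouse T cells are not known for it.

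The promoters are shown because the members divide in the results below into chains and H2-DM, and both kinds have a promoter in the table. H2-Aa, H2-Eb1, H2-DMa and H2-DMb1, 4 of the 7 members, were matched to promoter windows of RefSeq on GRCm38.p6, each from 250 bases before to 50 bases after an annotated start. The table gave none for H2-Ab1, Cd74 and Ciita. The windows were searched for the letters ACNGATG, a core of the X box, and ATTGG, a core of the Y box, on both strands. In the 3 windows printed, 5′ to 3′ on the strand of the gene, capitals mark the matches on that strand. H2-Aa lies at chr17:34287774-34288073 (minus strand), H2-Eb1 at chr17:34305617-34305916 (plus strand) and H2-DMb1 at chr17:34152941-34153240 (plus strand).
H2-DMb1: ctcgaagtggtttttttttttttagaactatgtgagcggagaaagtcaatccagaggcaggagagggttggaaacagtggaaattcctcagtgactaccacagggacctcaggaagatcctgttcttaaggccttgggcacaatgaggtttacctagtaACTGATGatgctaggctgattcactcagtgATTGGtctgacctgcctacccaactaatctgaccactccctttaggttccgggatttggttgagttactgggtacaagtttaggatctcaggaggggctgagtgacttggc
H2-Aa: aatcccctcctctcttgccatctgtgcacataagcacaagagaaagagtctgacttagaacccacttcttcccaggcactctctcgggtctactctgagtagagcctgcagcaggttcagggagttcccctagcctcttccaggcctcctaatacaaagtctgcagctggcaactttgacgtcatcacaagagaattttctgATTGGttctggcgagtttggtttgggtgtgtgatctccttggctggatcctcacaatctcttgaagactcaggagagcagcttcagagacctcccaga
H2-Eb1: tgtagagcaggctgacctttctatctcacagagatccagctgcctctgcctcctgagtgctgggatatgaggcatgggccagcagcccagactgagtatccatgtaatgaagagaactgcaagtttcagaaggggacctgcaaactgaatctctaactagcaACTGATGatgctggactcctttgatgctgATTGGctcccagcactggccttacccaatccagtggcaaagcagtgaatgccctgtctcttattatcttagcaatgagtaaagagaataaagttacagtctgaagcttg
In H2-Eb1 the X core began 88 bases before the start and the Y core 59 bases before it, with 22 bases between them. In H2-DMb1 they began 91 and 61 bases before the start, with 23 bases between them. This RefSeq start and both cores lie inside the gene as the mm10 annotation gives it, from 34153072. The window of H2-Aa held the Y core, 48 bases before the start, and no X core on the strand of the gene, and neither of the 2 windows of H2-DMa held the pair. Those 2 windows begin at 34122582 and 34125268, inside the gene, which begins at 34119541 in the mm10 annotation. No window at that first position was searched, so the pair is not known to be absent there. Of 32851 promoter windows of the same length, 9.85% held the X core, 37.4% the Y core and 0.177% (58 windows) both on 1 strand with 8 to 30 bases between them. This range of spacing was chosen after the class II promoters had been seen. The matches are descriptions of the letters, not measured binding. Only these exact letters were searched, so an X box of other letters would be missed, in H2-Aa too.

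**Figure D1:**
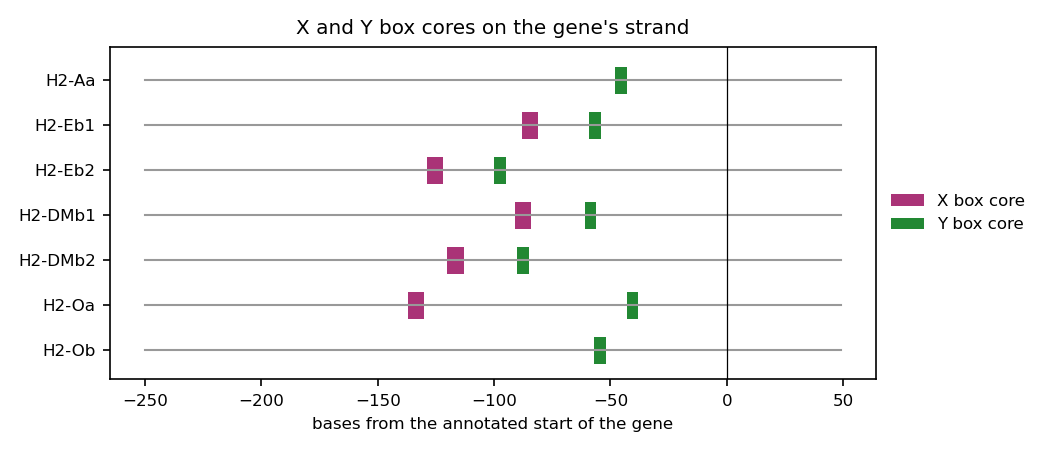
Matches to the X box core and the Y box core on the strand of the gene, in bases from the annotated start (x axis), for class II genes with a promoter window and a match (y axis; H2-DMa is left out because it has 2 windows). H2-Eb1, H2-Eb2, H2-DMb1 and H2-DMb2 each held the X core and then the Y core with 22 or 23 bases between them.

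Of 7038 barcodes of the WT/WT library (33601957 UMIs) and 7834 of the LI/LI library (47731571 UMIs), 7032 and 7817 passed a filter on cells (200 or more genes, mitochondrial UMIs up to 10%). A UMI marks 1 captured transcript, so that amplified copies are counted once. Disc1 had 642 UMIs in the WT/WT library and 22 in the LI/LI library. The libraries shared 12 cell barcodes. They differed widely in the cells they held, although both were sorted by the same gate. Microglia, the cells with at least 0.5% of UMIs from P2ry12, Gpr34, Tmem119, Siglech, Fcrls and Olfml3, were 6072 cells (86.4%) in WT/WT and 1943 (24.9%) in LI/LI. Neutrophils, with at least 3% from S100a8 and S100a9, were 116 and 3622 cells, and border macrophages, with a UMI of at least 3 of Mrc1, Pf4, Ms4a7, Cbr2, Cd163 and Folr2, were 294 and 48. The other cells were 550 and 2204. These classes are ranges of a score. In the range from 0.25 to 0.5%, just under the microglia limit, lay 273 and 257 further cells, and 121 and 23 border macrophages had exactly 3 markers. Of the border macrophages, 108 and 7 also met the limits for microglia. The microglia carried the markers of their class at a median of 1.18% and 1.09% of UMIs. Other cells were divided by UMIs of at least 2 markers of a type, which gave 32 and 94 dendritic-like, 14 and 153 B-like, 46 and 82 T-like and 54 and 1292 monocyte-like cells, and left 380 and 366 undivided.

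Class II chains were low in microglia and high in border macrophages and dendritic-like cells, in both libraries. Levels are given as CPM, the UMIs of a gene per 1000000 UMIs of the same cells. H2-Aa stood at 61.8 CPM (interval 59.0 to 64.8) in WT/WT microglia and at 102 (95.2 to 109) in LI/LI microglia. In border macrophages it stood at 3391 (3297 to 3486) and 6149 (5851 to 6459). H2-Ab1 stood at 55.3 and 85.0 in microglia and at 2540 and 4647 in border macrophages. H2-Eb1 stood at 67.4 and 93.0 in microglia and at 2993 and 5481 in border macrophages. Every interval of the 3 genes in border macrophages lay above every one in microglia. H2-Aa had 7 UMIs in the 116 WT/WT neutrophils, or 10.5 CPM (4.22 to 21.6), and 1777 UMIs, or 82.4 CPM (78.6 to 86.3), in the 3622 LI/LI neutrophils. In other cells it stood at 4017 and 1005.

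Summed over the 3 chain genes, dendritic-like cells came first and neutrophils last in both libraries among the classes and marker-defined groups of at least 10 cells. In WT/WT the order ran from dendritic-like cells (24617 CPM) through undivided cells (13249), border macrophages (8923), B-like cells (8105), monocyte-like cells (6297), T-like cells (1678) and natural killer-like cells (384) to microglia (185) and neutrophils (28.5). Border macrophages and B-like cells had overlapping intervals, and the other neighbours did not. In LI/LI dendritic-like cells (17405) and border macrophages (16278) came first, and undivided (5513) and B-like cells (5418) followed with overlapping intervals. Microglia (280), natural killer-like cells (264) and neutrophils (201) came last. Microglia overlapped there with the natural killer-like cells, which overlapped with neutrophils. The T-like cells of WT/WT rested on few cells, since 2 of 46 held 97.8% of their chain UMIs. Of the 16 natural killer-like cells of WT/WT, 1 held 96.2% of the 26 chain UMIs. The place of that group above microglia therefore rested largely on 1 cell.

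Cd74, the invariant chain, followed the chains. It stood at 186 (181 to 191) CPM in WT/WT and 378 (365 to 392) in LI/LI microglia, at 8633 and 15957 in border macrophages, and at 24411 and 20265 in dendritic-like cells. The number of Cd74 UMIs for each chain UMI was 0.968 and 0.98 in border macrophages, 0.992 and 1.16 in dendritic-like cells, and 1.96 and 2.05 in B-like cells. In microglia it was 1.01 in WT/WT and 1.35 in LI/LI. The B-like cells therefore held the highest ratio among the groups named here in both libraries. In LI/LI a group of 17 plasmacytoid dendritic-like cells stood higher, at 2.16.

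Ciita was at the limit of detection in microglia. It had 6 UMIs in 5 of 6072 WT/WT microglia, or 0.209 CPM (0.0767 to 0.455), and 2 UMIs in 2 of 1943 LI/LI microglia, or 0.246 (0.0298 to 0.890). Border macrophages had 28 UMIs, or 19.1 CPM (12.7 to 27.6), in WT/WT and 9 UMIs, or 34.7 (15.9 to 66.0), in LI/LI. Dendritic-like cells stood at 88.0 (60.6 to 124) and 63.5 (48.0 to 82.5). No Ciita UMI was found in the WT/WT neutrophils, where 3 UMIs would be 4.50 CPM. In LI/LI neutrophils there were 25, and 23 of them lay in the 43 cells that held at least 10 chain UMIs.

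**Figure D2:**
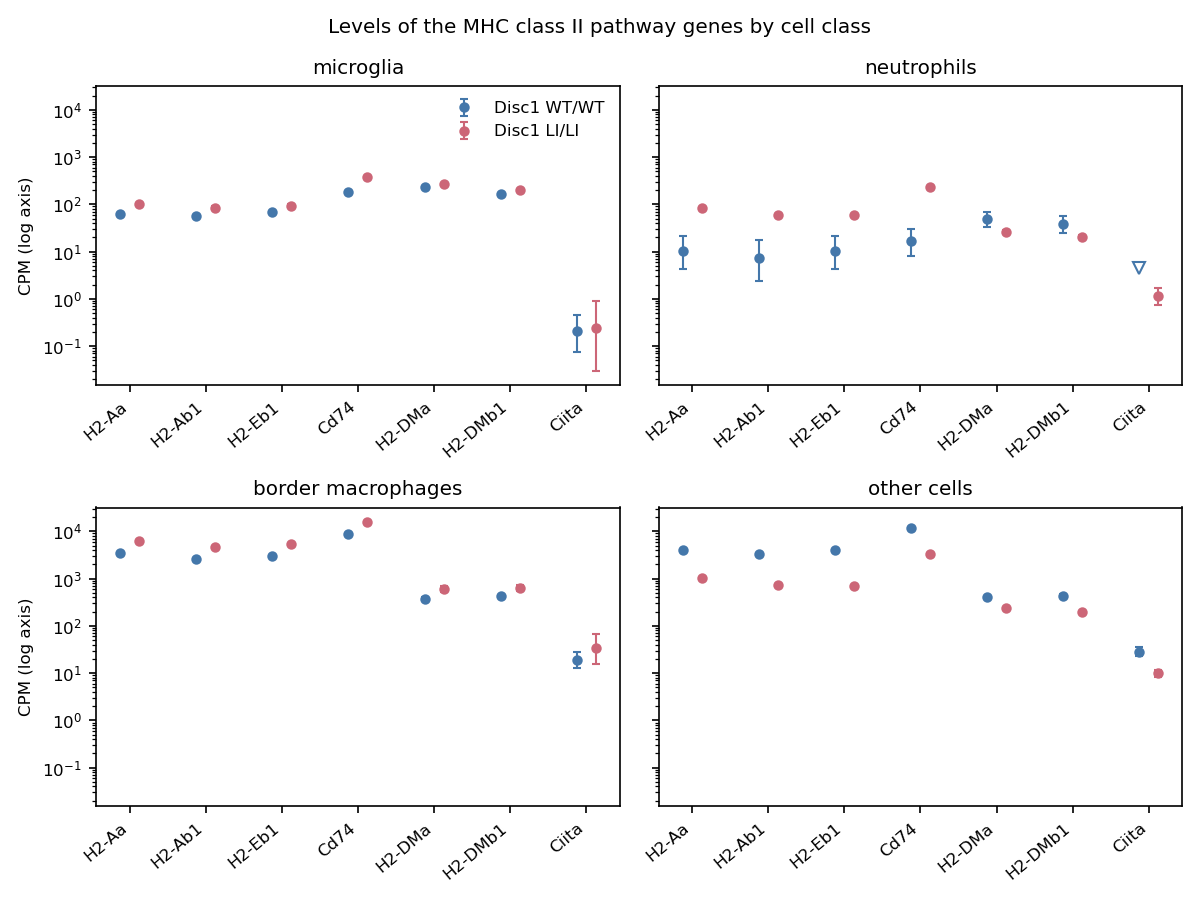
CPM of each member (y axis, log scale) in the 4 cell classes of the WT/WT and LI/LI libraries, with 95% exact Poisson intervals for counting error; the open triangle is the level that 3 UMIs would give where none was found. H2-DMa and H2-DMb1 lie above the chains in microglia and in WT/WT neutrophils, and below them in border macrophages.

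The H2-DM genes did not follow the chains in microglia. H2-DMa stood at 234 (228 to 240) and 273 (262 to 285) CPM in microglia, at 373 (342 to 405) and 606 (515 to 709) in border macrophages, and at 48.0 (32.8 to 67.7) and 26.2 (24.1 to 28.5) in neutrophils. H2-DMb1 stood at 168 (163 to 173) and 196 (187 to 206) in microglia, at 424 and 637 in border macrophages, and at 37.5 and 20.5 in neutrophils. Both genes thus lay between border macrophages and neutrophils in microglia, with no overlap of the intervals in either library. H2-DMb1 and its neighbour H2-DMb2 are near-identical copies, and how the counting divided reads between them is uncertain. H2-DMb2 was counted at 6.45 and 12.3 CPM in microglia. H2-Eb1 has a similar copy, H2-Eb2, which had 0 and 3 UMIs in microglia.

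Border macrophages exceeded microglia in the summed chains 48.3-fold in WT/WT (log2 5.60, 5.55 to 5.64) and 58.1-fold in LI/LI (log2 5.86, 5.79 to 5.94), and in Cd74 46.5-fold and 42.2-fold. Without the cells of both classes that held at least 10 chain UMIs, the log2 ratios of the chains were 2.04 and 1.06. They exceeded microglia in H2-DMa 1.59-fold and 2.22-fold, and in H2-DMb1 2.53-fold and 3.24-fold. Of the 6 members with enough UMIs, 5 were at least 2-fold higher in border macrophages in both libraries, all but H2-DMa. Of all 10315 genes tested, 3.71% were. Neutrophils lay at least 2-fold below microglia in both libraries for 2 of the 6, H2-DMa and H2-DMb1, against 44.4% of 11126 genes. The 2 of 6 members are no larger a share than that of all genes. Summed H2-DM was 4.70-fold and 10.1-fold lower in neutrophils than in microglia, and the chains were 6.48-fold and 1.39-fold lower.

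Microglia held 76.5% of all H2-DM UMIs of the WT/WT library but 10.6% of its chain UMIs. In the LI/LI library, where they were fewer, they held 29.3% of the H2-DM and 4.19% of the chain UMIs. Microglia were 86.4% of the cells of WT/WT and 24.9% of those of LI/LI. Their part of the H2-DM UMIs thus lay below their share of cells in WT/WT and above it in LI/LI. Their part of the chain UMIs lay below it in both. Monocyte-like cells held 31% of the H2-DM UMIs there, more than microglia, and 2.21% in WT/WT. The chain UMIs of WT/WT lay mostly in undivided cells (36.8%), border macrophages (26.2%) and dendritic-like cells (18.5%). Those of LI/LI lay in dendritic-like (28.3%), undivided (20.3%) and monocyte-like cells (20.1%). Of the undivided cells with at least 10 chain UMIs, 86.5% of 133 in WT/WT and 48.1% of 81 in LI/LI had a UMI of a border macrophage marker, and 19.5% and 58.0% of a dendritic cell marker. For each chain UMI there were 2.18 and 1.68 H2-DM UMIs in microglia, 0.0893 and 0.0764 in border macrophages, and 0.0720 and 0.102 in dendritic-like cells. In neutrophils there were 3 and 0.232, so the WT/WT value lay above that of microglia, though on 19 chain UMIs. These ratios are read across classes only, since different transcripts may be captured unequally.

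**Figure D3:**
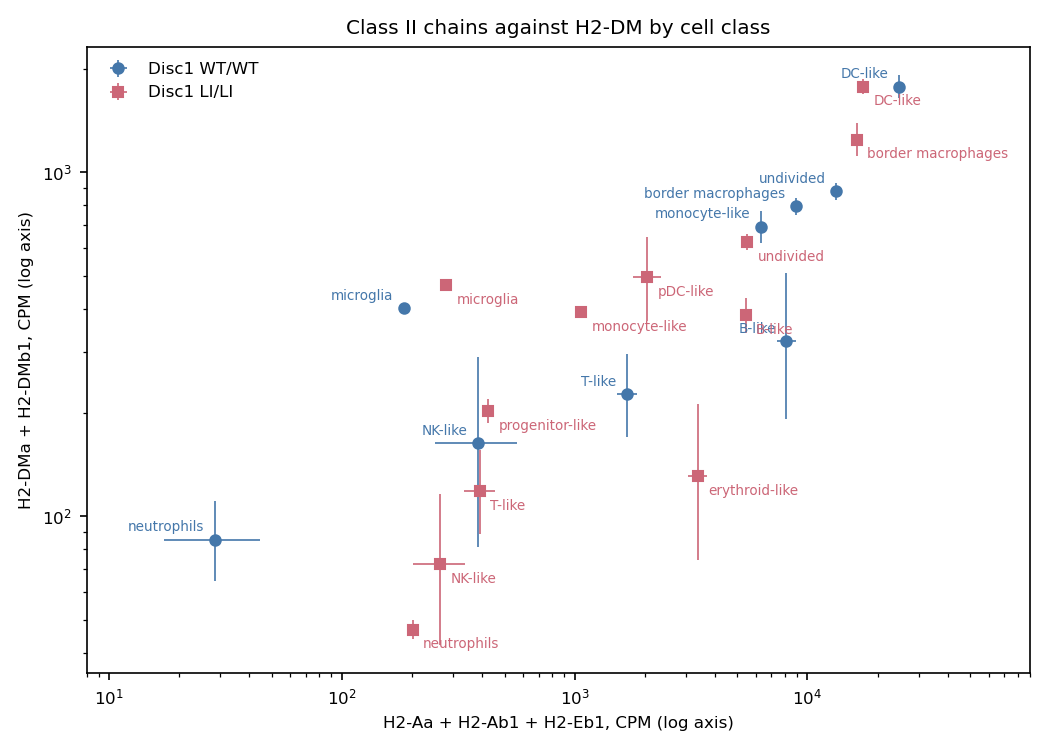
Summed H2-DMa and H2-DMb1 (y axis) against summed H2-Aa, H2-Ab1 and H2-Eb1 (x axis), both in CPM on log scales, for each class or marker-defined group of at least 10 cells in each library, with 95% exact Poisson intervals. Microglia of both libraries hold H2-DM at 402 and 470 CPM with chains at 185 and 280, whereas border macrophages hold 797 and 1243 with chains at 8923 and 16278.

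A UMI of H2-DMa or H2-DMb1 was found in 78.3% (77.3 to 79.4) of WT/WT and 79.7% (77.8 to 81.4) of LI/LI microglia. To set classes of unequal depth side by side, each cell was also thinned to 1000 UMIs, leaving out 100 and 17 shallower microglia. Then the shares with H2-DM were 32.3% and 36.6% in microglia, 4.35% and 8.54% in T-like cells and 7.83% and 2.02% in neutrophils. T-like cells and neutrophils are not known for class II and are taken as the background here. Their chain UMIs were mostly held by few cells. In LI/LI, 6 of 82 T-like cells held 82.6% and 43 of 3622 neutrophils held 76.3%. In WT/WT, 2 of 46 T-like cells held 97.8%, whereas no neutrophil had more than 2. Free RNA, doublets and wrongly assigned cells were not told apart in this background. Microglia thus lay above that background for H2-DM in both libraries. For a UMI of any chain the thinned shares were 5.41% (4.85 to 6.01) and 7.84% (6.68 to 9.13) in microglia, 4.35% and 9.76% in T-like cells, and 1.74% and 6.08% in neutrophils. In the deposited depth these were 19.5% and 20.7% in microglia, 15.2% and 26.8% in T-like cells, and 14.7% and 22.7% in neutrophils, at median depths of 4258.5 and 3779 UMIs in microglia, 4722 and 4671 in T-like cells, and 4844.5 and 4194 in neutrophils. In WT/WT the intervals of T-like cells and neutrophils held the microglial share, although the T-like share is 2 of 46 cells. In LI/LI the interval of T-like cells (4.31 to 18.3) held the microglial share too, which lay above the interval of neutrophils (5.32 to 6.91). A chain share of microglia above background was therefore not shown in WT/WT, nor against T-like cells in LI/LI. Against LI/LI neutrophils the microglial share was higher, but the 2 intervals overlapped. In border macrophages the thinned share was 51.4% and 70.2%. A UMI of S100a8 or S100a9 was found in 12.1% of WT/WT and 91.9% of LI/LI microglia, and the part of free RNA or doublets in these values was not tested.

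The chain UMIs of microglia were unevenly spread over cells. No chain UMI was found in 80.5% of WT/WT and 79.3% of LI/LI microglia, and 17.7% in both libraries held 1 or 2. The 56 WT/WT microglia (0.922%, 0.697 to 1.20) and 38 LI/LI microglia (1.96%, 1.39 to 2.67) with at least 10 held 72.8% and 78.8% of all chain UMIs of the class. This limit of 10 was chosen after the values were seen. Among LI/LI neutrophils, 43 of 3622 (1.19%) passed it and held 76.3%, and among WT/WT neutrophils none of 116 did. In border macrophages 40.1% and 64.6% of cells passed it and held 98.7% and 99.8% of the chain UMIs, while 39.8% and 29.2% held no chain UMI.

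**Figure D4:**
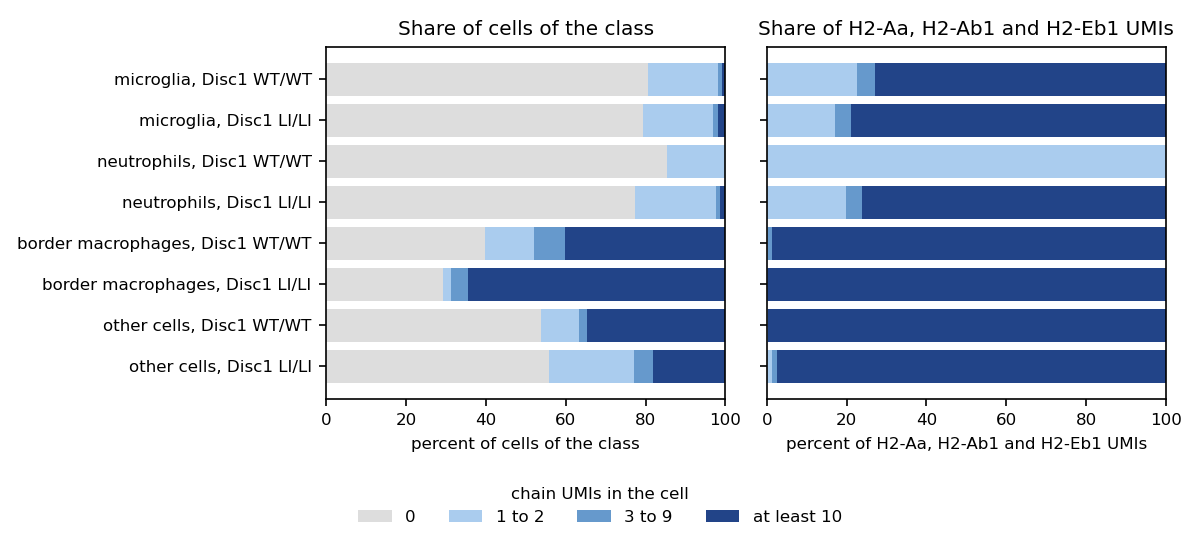
Percent of the cells of each class and library (left) and of the UMIs of H2-Aa, H2-Ab1 and H2-Eb1 in that class (right), by the number of chain UMIs in the cell. In microglia of both libraries cells with at least 10 chain UMIs are 0.922% and 1.96% of cells and hold 72.8% and 78.8% of the chain UMIs.

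H2-DM in microglia was also found in cells with no chain UMI. Chains are low in microglia and cells are of limited depth, so such a cell is not shown to lack chain transcripts. In microglia with no chain UMI it stood at 394 (386 to 403) CPM in WT/WT and 473 (456 to 490) in LI/LI, and in those with at least 10 chain UMIs at 932 (836 to 1035) and 711 (614 to 819). Cd74 stood at 34.8 and 57.9 in the microglia with no chain UMI and at 10737 and 9133 in those with at least 10. In neutrophils with no chain UMI, H2-DM stood at 72.7 and 28.3. In border macrophages it was 222 and 275 without a chain UMI, below the 394 and 473 of microglia without one in WT/WT, while in LI/LI, with 14 such cells, the intervals overlapped. Monocyte-like cells without a chain UMI, 25 and 832 cells, also held H2-DM, at 268 (208 to 340) and 258 (246 to 271) CPM. It was found in 80% and 79.2% of them, against 77.5% and 78.8% of microglia without a chain UMI. These shares were not matched for depth. Ciita had 27 of 28 and 9 of 9 of its UMIs from border macrophages in cells with at least 10 chain UMIs.

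The chain-rich microglia of the 2 libraries carried different markers of other cells. Cd79a, a B cell receptor component, was found in 3 of the 56 WT/WT cells (5.36%, 1.12 to 14.9) and 23 of the 38 LI/LI cells (60.5%, 43.4 to 76.0), against 0.123% and 0.909% of microglia with no chain UMI. The whole list of 6 B cell markers was found in 12.5% and 71.1%, against 12.7% and 15.3%. The 9 dendritic cell markers were found in 17.9% and 42.1%, against 9.27% and 7.79%. Ms4a7, 1 of the 6 border macrophage markers, was found in 39.3% of the chain-rich cells of WT/WT and 13.2% of those of LI/LI. A UMI of any of the 6 was found in 7.1% and 4.73% of all microglia, a wider list and a wider set of cells, so these shares are not like for like. For the chain-rich cells the share with any of the 6 is not given here, so Ms4a7 does not stand for the list. The chain-rich microglia were also deeper, at a median of 6507 and 6384 UMIs against 4163 and 3664.5. The limit is a count of UMIs, which deeper cells pass more easily, and the marker shares of this paragraph were not matched for depth. The 43 chain-rich LI/LI neutrophils had a B cell marker in 53.5% and a dendritic cell marker in 51.2%, at a median of 11149 UMIs against 3748 in neutrophils with no chain UMI. In chain-rich border macrophages Ccr2, a monocyte receptor, was found in 26.3% and 25.8% of cells, against none of 117 and none of 14 with no chain UMI (exact upper limits of the share of cells with a UMI, 3.10% and 23.2%). The whole list of 6 monocyte markers was found in 74.6% and 83.9% of the chain-rich border macrophages and in 77.8% and 71.4% of those with no chain UMI. Doublets were not removed, and their part in these values was not tested.

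Between the genotypes, the CPM of the summed chains in microglia was higher in LI/LI (log2 LI/LI over WT/WT of 0.60, 0.53 to 0.67, or 1.52-fold). H2-Aa (0.72), H2-Ab1 (0.62) and H2-Eb1 (0.46) were each under 2-fold, H2-DMa (0.23, 0.16 to 0.30) and H2-DMb1 (0.23, 0.14 to 0.31) were closer to 0, and Cd74 (1.03, 0.96 to 1.09) was the 1 member of 6 tested past 2-fold. Of 12193 genes 2.70% were at least 2-fold higher and 4.61% lower, and 0 members were lower. The members' median was 0.54, against -0.19 for all genes. Without the microglia that had a UMI of a dendritic or B cell marker, the chains fell to 0.00 (-0.10 to 0.10) and Cd74 to 0.00, while H2-DMa stayed at 0.22. The cells left out were not few. A B cell marker UMI was found in 13.5% of WT/WT and 17.3% of LI/LI microglia, and a dendritic cell marker UMI in 9.91% and 9.01%. Scaling by the TMM method raised all ratios by 0.13 in microglia, 0.17 in border macrophages, 0.54 in neutrophils and 0.47 in other cells.

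In border macrophages every member was higher in LI/LI, and none passed 2-fold. The log2 ratios were 0.86 for H2-Aa, 0.87 for H2-Ab1, 0.87 for H2-Eb1, 0.89 for Cd74, 0.70 (0.44 to 0.96) for H2-DMa, 0.59 (0.33 to 0.84) for H2-DMb1 and 0.86 (-0.41 to 1.99) for Ciita, whose interval held 0. The background was 2.59% of 7478 genes higher and 18.5% lower, and 0 of 7 members were in either. The chains together were at 0.87 and went past 2-fold under TMM scaling (1.03) and without cells that had a dendritic or B cell marker UMI (1.13). The LI/LI value rests on 48 cells, and chain-rich cells were 64.6% of them against 40.1%. The class also differed in make-up, since 108 of 294 WT/WT cells and 7 of 48 LI/LI cells met the limits for microglia too. Summed microglia markers stood at 5338 and 2802 CPM in the class, and the part of this difference in the ratios was not tested. Without cells with at least 10 chain UMIs, an alternative that selects on the measure itself, the ratio of the chains was -0.71 (-1.87 to 0.24).

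In neutrophils the chains were higher in LI/LI by 2.82 on the log2 scale (2.18 to 3.55), against 19 UMIs in WT/WT. H2-Aa (2.97), H2-Ab1 (2.97), H2-Eb1 (2.52) and Cd74 (3.85, 3.01 to 4.86) were past 2-fold, 4 of 7 members, against 5.17% of 10427 genes. No member was 2-fold lower, against 22.6% of genes. H2-DMa and H2-DMb1 went the other way, each at -0.87 (-1.38 to -0.31 and -1.45 to -0.23). A UMI of a microglia marker was found in 48.3% of WT/WT and 23.2% of LI/LI neutrophils. The part of microglial RNA in these ratios was not tested. Ciita has no fold, since the level in LI/LI (1.16 CPM) lay under that of 3 UMIs in WT/WT. Without the cells that had a dendritic or B cell marker UMI the ratio of the chains was 1.99 (1.26 to 2.83), and without chain-rich cells 0.78 (0.13 to 1.52).

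In other cells the members were lower in LI/LI. The chains stood at -2.22 (-2.24 to -2.20), Cd74 at -1.79, Ciita at -1.54 (-1.94 to -1.14), H2-DMb1 at -1.13 and H2-DMa at -0.72 (-0.81 to -0.62). All members but H2-DMa, 6 of 7, were at least 2-fold lower, against 23.1% of 11956 genes, and 0 were higher, against 5.29%. These other cells differed in kind between the libraries, with 1292 monocyte-like cells of 2204 in LI/LI and 54 of 550 in WT/WT. Within dendritic-like cells the chains were at -0.50 (-0.54 to -0.46), within B-like cells at -0.58 (-0.72 to -0.44) and within monocyte-like cells at -2.57 (-2.62 to -2.51). Within undivided cells they were at -1.26, within T-like cells at -2.10 and within natural killer-like cells at -0.54 (-1.22 to 0.18). The monocyte-like value rests on few cells, since 16 of 54 in WT/WT held 99.4% of the chain UMIs and 114 of 1292 in LI/LI held 94.7%. Summed H2-DM was at -0.83 (-0.99 to -0.66) within monocyte-like cells, -0.49 (-0.61 to -0.38) within undivided cells and -0.94 (-1.51 to -0.36) within T-like cells. It was at -1.17 (-2.35 to 0.07) within natural killer-like cells and, above 0, at 0.25 (-0.435 to 1.03) within B-like cells. Within dendritic-like cells it was at 0.00 (-0.13 to 0.13), with H2-DMa at -0.25 (-0.45 to -0.05) and H2-DMb1 at 0.20 (0.02 to 0.38). With stricter class limits, which move more microglia into the other cells, the ratio of the chains was -0.77, and without chain-rich cells it turned to 0.21 (-0.08 to 0.51). Summed H2-DM stood at 1771 and 1773 CPM in dendritic-like cells.

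**Figure D5:**
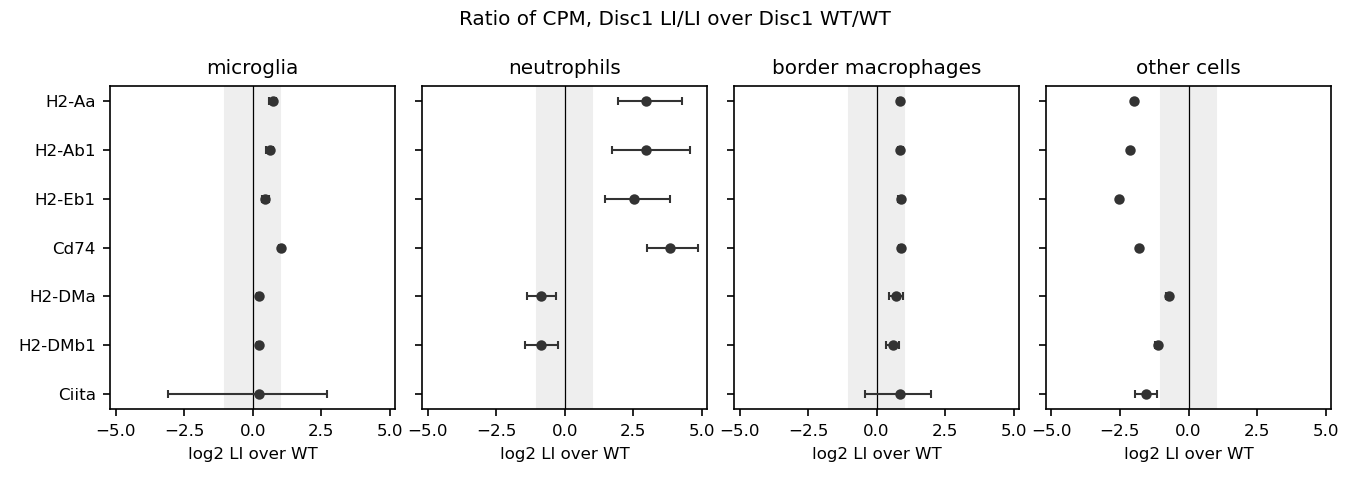
Log2 ratio of CPM, LI/LI over WT/WT (x axis), for each member (y axis) in the 4 cell classes, with 95% exact intervals for counting error; grey marks ratios under 2-fold, and Ciita in neutrophils has no ratio. The chains and Cd74 lie above 0 in microglia, neutrophils and border macrophages and below 0 in other cells.

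The other genes on the pathway list are no members. The listed symbols H2-Ea, H2-Ea-ps and Marchf1 were not among the genes counted, which left 26. In microglia 24 had enough UMIs, and none was 2-fold higher or lower, with a median log2 ratio of -0.19, against -0.19 for all genes. Ctss, the protease that trims the invariant chain in antigen-presenting cells, stood at 8061 and 8026 CPM. H2-Oa, a chain of the H2-O modulator of H2-DM, stood at 45.6 and 67.9 (log2 0.57, 0.43 to 0.72). March1, which drives the turnover of surface class II, stood at 443 and 303 (-0.55), and the promoter-binding Rfx5 at 11.95 and 6.78 (-0.82, -1.26 to -0.40). Jak2, a kinase of the interferon gamma receptor, stood at 37.5 and 20.95 (-0.84, -1.08 to -0.60). In neutrophils 8 of 23 listed genes were 2-fold lower and 1 higher, against 22.6% and 5.17% of all genes. In border macrophages 3 and 2 of 23 were, against 18.5% and 2.59%, and in other cells 11 and 0 of 26, against 23.1% and 5.29%. Ctss was 4.75-fold lower in LI/LI neutrophils (1757 and 370 CPM). The summed microglia markers were also lower there, at 2034 and 331 CPM, and the part of microglial RNA in the Ctss value was not tested.

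Over 17 groups of at least 20 cells, being classes and marker-defined groups of each library, the genes whose log2(CPM + 1) was most like that of the summed chains, apart from the members, were Rab7b (Pearson's r = 0.907), Clec4b1 (0.880), Shtn1 (0.864), Ifi207 (0.863) and Myof (0.852), of 9655 genes. Among the members r was 0.988 for Cd74, 0.924 for Ciita, 0.832 for H2-DMa and 0.822 for H2-DMb1. The groups share libraries, free RNA and depth, so these are descriptions.

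In the mm10 annotation H2-Aa, H2-Ab1, H2-Eb1, H2-DMa and H2-DMb1 lie within the class II locus of chromosome 17, from H2-DMa (34119541 to 34139101) to H2-Eb1 (34305867 to 34316674), with H2-DMb1 at 34153072 to 34160230, H2-Ab1 at 34257689 to 34269419 and H2-Aa at 34282744 to 34287823. Cd74 lies on chromosome 18 (60803848 to 60812652) and Ciita on chromosome 16 (10480059 to 10528418).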

How the data were processed

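The authors counted UMIs per gene and cell barcode with Cell Ranger 6.1.2 on mm10 and deposited these raw counts, without normalization, for 1 library per genotype. Which droplet chip and kit version was used for each library is not given in the sources used here. Groups came from the sample labels. Barcodes with under 200 genes or over 10% mitochondrial UMIs were left out. Cells were assigned in the order neutrophils, border macrophages, microglia (also under 1% of UMIs from S100a8 and S100a9) and other cells, and other cells to the type with the most markers, ties left undivided. The members, marker lists, pathway list and rules were chosen with earlier results of these data known. UMIs were summed over cells and divided by the summed UMIs of those cells. Levels have Poisson, shares binomial and ratios Clopper-Pearson intervals, all exact at 95%. Genes with at least 20 UMIs in a class entered a comparison, and a count of 0 was set to 3. The named genes are the members, the listed pathway genes, markers where a result turns on them, and the genes most like the chains. Depth per cell limits single-cell shares, which were therefore also thinned. The tools were edgeR 4.0.16 for TMM scaling alone, and scipy 1.17.1 with pandas 2.3.3 and numpy 2.4.6 under Python 3.11.15.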

Additional observations from a re-analysis of the deposited data

Results flagged for a closer look

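The genotype ratio of the summed chain genes H2-Aa, H2-Ab1 and H2-Eb1 did not have the same direction in all 4 cell classes. On the log2 scale, Disc1 LI/LI over Disc1 WT/WT, it was 0.60 in microglia, 0.87 in border macrophages and 2.82 in neutrophils, where Disc1 LI/LI was higher, and -2.22 in other cells, where it was lower. With 1 library per genotype the difference between classes was not tested. Beside it stand the 43 chain-rich neutrophils of Disc1 LI/LI and the 1292 monocyte-like cells among its 2204 other cells.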

How the results depend on the processing

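No paired analysis was possible because each genotype has 1 library. Values are log2 ratios of the summed chains. The cell filters and totals without hemoglobin, mitochondrial, S100a8 and S100a9 UMIs left each within 1 counting interval of its value. TMM scaling gave 0.73 in microglia, 1.03 in border macrophages and -1.74 in other cells between the genotypes, and 5.73 (WT/WT) and 6.00 (LI/LI) for border macrophages over microglia. Assigning microglia first gave 0.29 in microglia, 0.47 in border macrophages and 5.69 for WT/WT border macrophages over microglia. Stricter class limits gave 0.25, 0.67 and -0.77 in microglia, border macrophages and other cells, and 6.30 and 6.72 for border macrophages over microglia. Leaving out cells with a dendritic or B cell marker UMI gave 0.00485 in microglia, 1.13 in border macrophages, 1.99 in neutrophils, and 5.89 and 7.02 over microglia. Without the 5% of cells with the most UMIs the values were 0.50, 1.00 and -2.10 in microglia, border macrophages and other cells, and 5.94 and 6.45. Thinning gave 0.79 in border macrophages, -1.97 in other cells, and 6.09 and 6.29, and the mean over cells -1.91 in other cells, and 6.02 and 6.34.

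Added after the data were seen, Siglech left out of the microglia rule gave 0.37 in microglia, and 5.70 and 6.20 over microglia. Leaving out cells with at least 10 chain UMIs, which selects on the outcome, gave 0.27 in microglia, 0.78 in neutrophils, and 2.04 and 1.06 over microglia. It gave -0.71 in border macrophages and 0.21 in other cells, each a change of sign. In other cells H2-Aa became 0.34, H2-Ab1 0.60, H2-DMb1 0.18, Cd74 0.32 and Ciita 0.34. The cause was not tested, apart from the alternatives' own construction. Of 69 such values 30 stayed within the interval of the value reported, 38 moved and 1, of a ratio past 2-fold, changed sign. The border macrophage value of -0.71 is counted among those that moved, since the ratio reported was under 2-fold. The share of genes past 2-fold in microglia was 7.32% higher with no minimum count and 0.939% with at least 100 UMIs. Depth limits Ciita in microglia, where 3 UMIs are 0.105 and 0.370 CPM.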
